A study of Homo sapiens with 4 samples.

Results

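The chemokines with which Hodgkin lymphoma cells draw in T cells were described as a set of 10 genes, chosen by name: CCL17, CCL22, CCL5, CCL3, CCL4, CXCL8, CXCL9, CXCL10, CXCL11 and CXCL13. Of these, 9 were measured by 13 probe sets that are each annotated to 1 gene symbol, among 19775 genes in all. CCL3 has no such probe set, since its probe set also matches the near-identical copies CCL3L1 and CCL3L3. The cells were KM-H2, an established line from classical Hodgkin lymphoma. On 2 arrays the RNA came from KM-H2 cells with PTPN1 knocked down by siRNA, and on the other 2 arrays from KM-H2 cells given a non-silencing control. Arrays of a group carry the numbers 1 and 2. The submitters call them technical replicates, and every SD, SE and p-value here measures technical spread in 1 cell line, not the spread between cultures. Values are log2 signals processed by the authors with RMA, and a difference is always the knockdown minus the non-silencing value on that scale.

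Chemokines are small secreted proteins that guide leukocytes through receptors on their surface, and the malignant cells of Hodgkin lymphoma live among a large infiltrate of T cells. CCL17 and CCL22 bind CCR4 on T helper 2 and regulatory T cells and are known targets of STAT6, the transcription factor activated by interleukin-4 and interleukin-13. CCL5, CCL3, CCL4 and CXCL8 are known targets of NF-kB. CXCL9, CXCL10 and CXCL11 bind CXCR3 on T helper 1 and cytotoxic T cells and are known targets of interferon-gamma. CXCL13 draws in cells with CXCR5, such as B cells and follicular helper T cells. PTPN1 removes phosphate from tyrosines of JAK kinases, the enzymes upstream of the STAT factors, and the comparison asked how expression differs when PTPN1 is reduced.

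The genes CXCL9, CXCL10 and CXCL11 are direct neighbours on chromosome 4, with no other protein-coding gene between them in RefSeq. Their upstream sequences are shown because 2 of the 3 had the lowest differences of the set. Each line gives the 250 bases before the RefSeq start on the minus strand of GRCh38.p14. The positions are chr4:76007510-76007759 for CXCL9, chr4:76023498-76023747 for CXCL10 and chr4:76036071-76036320 for CXCL11. Capitals mark matches to the motifs described after the sequences.
CXCL9: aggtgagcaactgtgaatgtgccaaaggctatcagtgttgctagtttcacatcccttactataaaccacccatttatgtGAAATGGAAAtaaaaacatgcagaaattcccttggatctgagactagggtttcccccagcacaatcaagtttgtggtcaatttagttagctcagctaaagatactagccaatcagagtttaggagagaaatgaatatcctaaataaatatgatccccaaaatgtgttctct
CXCL10: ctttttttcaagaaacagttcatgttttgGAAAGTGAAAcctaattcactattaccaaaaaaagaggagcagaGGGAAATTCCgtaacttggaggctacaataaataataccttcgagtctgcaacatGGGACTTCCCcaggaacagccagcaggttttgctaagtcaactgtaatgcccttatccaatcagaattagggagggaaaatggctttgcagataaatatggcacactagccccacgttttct
CXCL11: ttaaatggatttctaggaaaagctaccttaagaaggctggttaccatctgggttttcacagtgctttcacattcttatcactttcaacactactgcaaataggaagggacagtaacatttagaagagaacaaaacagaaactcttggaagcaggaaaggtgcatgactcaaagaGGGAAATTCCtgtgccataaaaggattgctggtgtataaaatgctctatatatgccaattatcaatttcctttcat

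A total of 3 motifs were searched on both strands of the same 250 bases. The motif GAAANNGAAA, part of the interferon-stimulated response element bound by IRF factors, matched once in CXCL10 (GAAAGTGAAA, 221 to 212 bases before the start) and once in CXCL9 (GAAATGGAAA, 171 to 162 bases before). It was held by 3.02% of all 35116 RefSeq promoter windows. The kappa B consensus, the sequence bound by NF-kB, matched at 2 places in CXCL10 (GGGAAATTCC, 177 to 168 bases before the start, and GGGACTTCCC, 122 to 113 bases before) and at 1 place in CXCL11 (GGGAAATTCC, 76 to 67 bases before). This consensus was held by 5.21% of all windows. The STAT6-type motif TTCNNNNGAA matched in none of the windows of the set and was held by 5.38% of all windows. No matches of different motifs overlapped. Of the 10 chemokine genes, 7 had an entry in the RefSeq table, with 10 windows in all. Among the entries not printed, CCL22 held 1 kappa B match (GGGGGTCCCC, 185 to 176 bases before its start on chromosome 16), and CCL3, CXCL8 and CXCL13 held none of the 3 motifs. CCL17, CCL5 and CCL4 had no entry. Only exact matches to the patterns were counted, so the search says nothing of binding sites that depart from them.

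PTPN1 itself read 7.0 and 7.36 in the knockdown arrays, against 8.16 and 8.40 in the non-silencing arrays, a difference of -1.10 (SE 0.18). Array medians lay between 5.1 and 5.12. The 6 markers of Hodgkin cells read 7.23 or more in every array, among them TNFRSF8, which encodes CD30. Of the T cell markers CD3D and CD3G read above the median of all values, 5.11, in every array, and CD3E, CD2, CD8A and CD28 below it. For beta-actin, the signal at the 3' end minus that at the 5' end, which depends on how intact and how evenly amplified the RNA is, was 1.33 and 0.969 in knockdown arrays 1 and 2, against 1.31 and 0.972 in non-silencing arrays 1 and 2, so it followed the array number and not the group.

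No chemokine of the set passed the test. In limma, 0 of the 9 measured genes had an adjusted p under 0.05, as did 0 of all 19775 genes (0.0% called). At an unadjusted limma p under 0.05 there was 1 member, CCL17, where 2.57% of all genes had such a p. The largest differences lay in opposite directions: CCL17 was about 2-fold brighter in the knockdown arrays, and CXCL10 and CXCL11 were dimmer. The groups did not overlap for 3 of the 9 members, against 27.4% of all genes. In 2 of them, CCL17 and CXCL13, the knockdown arrays were higher (12.4% of all genes), and in 1, CCL22, they were lower (15.0% of all genes). The difference was positive within both array numbers for 2 of the 9 members (27.8% of all genes) and negative within both for 3, CCL22, CXCL10 and CXCL11 (29.8% of all genes). These shares do not set the members apart from the rest. An exact permutation test of 2 against 2 arrays cannot give a p below 0.333, so no single value can pass it.

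**Figure D1:**
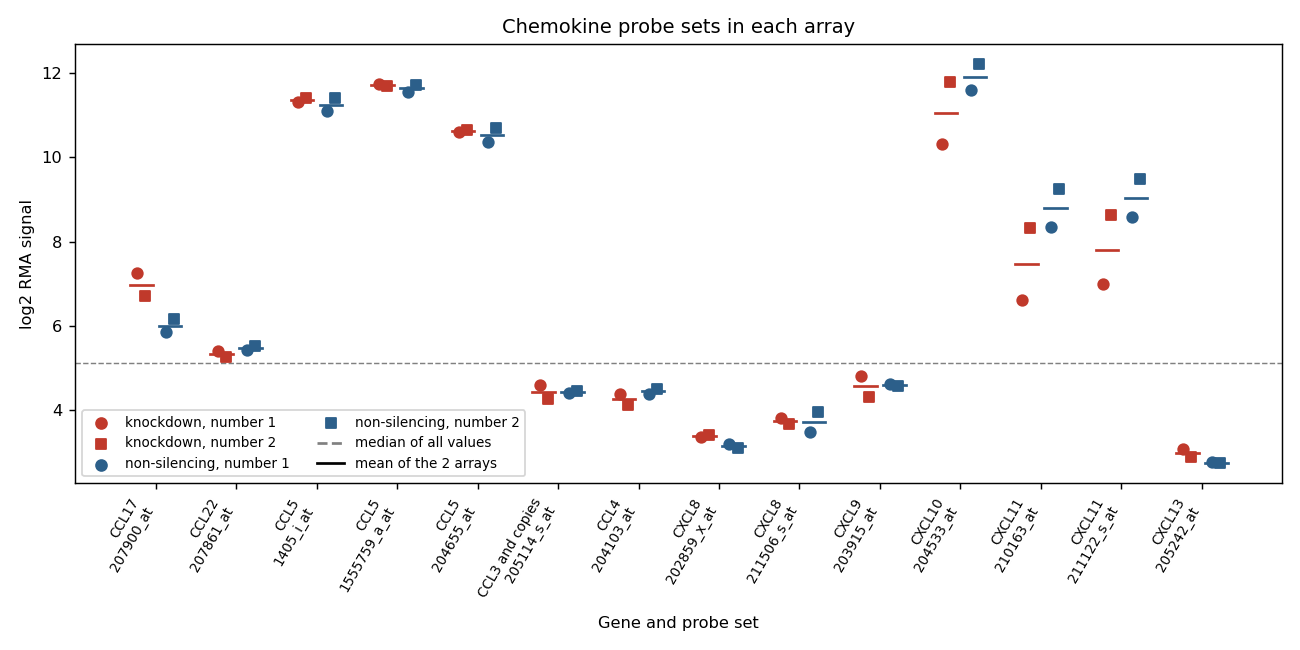
Log2 RMA signal of the 14 probe sets in each of the 4 arrays, with knockdown in red left of non-silencing in blue, circles for arrays numbered 1, squares for arrays numbered 2, short lines for the mean of the 2 arrays of a group and a dashed line at 5.11, the median of all values. The CCL17 points separate by group, the CXCL10 and CXCL11 squares sit above the circles in both groups, and CCL5 sits above 10 in every array.

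CCL17, the ligand of CCR4, had the largest positive difference of the set. It read 7.25 and 6.70 in knockdown arrays 1 and 2, against 5.86 and 6.16 in non-silencing arrays 1 and 2. Both knockdown values lay above both non-silencing values, with a gap of 0.55 between the nearest arrays. The means were 6.97 ± 0.38 in knockdown and 6.01 ± 0.21 in non-silencing (SD, n = 2 each), a difference of 0.97 (SE 0.23, limma 95% interval from 0.38 to 1.56, not adjusted for the number of genes) or 1.96-fold. The unadjusted limma p was 0.00815 and the adjusted p was 1.0. Of all genes 0.46% had a difference as high or higher. Within number 1 the difference was 1.39 and within number 2 it was 0.55. RNA was taken from whole cultures, so that more cells with a transcript and more transcript per cell cannot be told apart.

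CCL22, the second ligand of CCR4, did not show the CCL17 pattern. It read 5.41 and 5.27 in the knockdown arrays, against 5.43 and 5.52 in the non-silencing arrays. The groups were apart, but by 0.03, and all 4 values lay just above the median of all values. The difference was -0.14 (SE 0.13, limma 95% interval from -0.47 to 0.20), with an adjusted p of 1.0. The response of CCL17 exceeded that of CCL22 by 1.11, and by 1.42 and 0.80 within the numbers 1 and 2, a gap that was not tested. In RefSeq both genes lie on chromosome 16 with a single protein-coding gene between them, CX3CL1, which encodes a membrane-bound chemokine. CX3CL1 read 9.05 and 9.03 in the knockdown arrays, against 9.0 and 9.0 in the non-silencing arrays, a difference of 0.04.

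CXCL10, a ligand of CXCR3, was among the genes with the lowest differences, but its groups overlapped. It read 10.31 and 11.78 in knockdown arrays 1 and 2, against 11.60 and 12.22 in non-silencing arrays 1 and 2. Knockdown array 1 was the lowest of the 4, and knockdown array 2 lay above non-silencing array 1. The means were 11.05 ± 1.04 in knockdown and 11.91 ± 0.44 in non-silencing (SD, n = 2 each), a difference of -0.86 (SE 0.52), so that knockdown had 55% of the non-silencing signal. The limma 95% interval ran from -2.19 to 0.46 and the adjusted p was 1.0. Of all genes 0.248% had a difference as low or lower. Within the array numbers the difference was -1.29 and -0.43, and without knockdown array 1 it was -0.12.

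CXCL11, another ligand of CXCR3, had the lowest difference of the set in each of its 2 probe sets. The brighter read 6.98 and 8.63 in the knockdown arrays, against 8.58 and 9.50 in the non-silencing arrays. The dimmer read 6.61 and 8.33 in the knockdown arrays, against 8.35 and 9.25 in the non-silencing arrays. Knockdown array 2 and non-silencing array 1 read nearly alike in both, so that the groups just overlapped in the brighter probe set and were just apart in the dimmer. The difference was -1.23 (SE 0.60) in the brighter probe set, or 42.6% of the non-silencing signal, with a limma 95% interval from -2.78 to 0.32 and an adjusted p of 1.0. It was -1.33 in the dimmer. Of all genes 0.0708% had a difference as low as -1.23 or lower. Within the array numbers the brighter probe set differed by -1.59 and -0.87, and without knockdown array 1 by -0.41.

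CXCL9, the remaining ligand of CXCR3, was dim and showed no direction. It read 4.82 and 4.32 in the knockdown arrays, against 4.62 and 4.58 in the non-silencing arrays. The non-silencing values fell between the knockdown values. The difference was -0.03 (SE 0.20, limma 95% interval from -0.54 to 0.48), and 0.20 and -0.26 within the numbers 1 and 2. All 4 values were under the overall median, where RMA compresses differences, so that a small difference may not be detectable. The response of CXCL10 minus that of CXCL9 was -0.83, with -1.49 and -0.18 within the numbers 1 and 2. For CXCL11 minus CXCL9 the gap was -1.20, with -1.79 and -0.61 within the numbers. Both gaps were untested.

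CXCL10 and CXCL11 also differed between the array numbers, and in the same direction in both groups. Array 2 exceeded array 1 by 1.48 in knockdown and by 0.62 in non-silencing for CXCL10, and by 1.64 and 0.92 for CXCL11. Averaged over the groups, the number 2 minus number 1 difference was 1.05 for CXCL10, which 0.93% of all genes equalled or exceeded, and 1.28 for CXCL11, which 0.511% equalled or exceeded. CXCL9 (-0.27), CCL17 (-0.12) and CCL5 (0.05) did not share it. The interferon-gamma route was mixed: 8 of 15 genes were higher and 7 lower in number 2, with a median of 0.06, against -0.02 over all genes. The guanylate-binding protein genes GBP1 and GBP2 were highest, at 1.99 and 1.46, which 0.0759% and 0.293% of all genes equalled or exceeded. GBP5 followed at 0.81 (1.86% of all genes), then IFNGR1, JAK2 and CIITA at 0.66, 0.63 and 0.52. WARS1, a tRNA synthetase gene induced by interferon-gamma, and IRF1 were lowest, at -0.46 and -0.38. The beta-actin ratio also followed the array number, and its part in these values was not tested. COL1A1, which encodes a collagen chain of fibroblasts, had the same order of arrays as CXCL10, with 8.63 and 9.78 in knockdown against 9.36 and 10.01 in non-silencing. Of the 4 fibroblast markers COL1A1 alone had a negative difference, at -0.48, while COL3A1, PDGFRB and DCN differed by 0.10, 0.03 and 0.13. Their log2 signals summed to 22.92 and 24.32 in knockdown, against 23.31 and 24.35 in non-silencing, sums that follow COL1A1. COL3A1 was below 4 in all arrays, and the part of these markers was not tested.

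CCL5, which draws in T cells and mast cells, was bright in all arrays and nearly level. Its brightest probe set read 11.74 and 11.69 in the knockdown arrays, against 11.56 and 11.71 in the non-silencing arrays. The groups overlapped in all 3 of its probe sets. Their differences were 0.08, 0.11 and 0.10, and in each the number 1 arrays differed by more (0.18, 0.21 and 0.25) than the number 2 arrays (-0.02, -0.00 and -0.04). For the brightest the SE was 0.13, with a limma 95% interval from -0.25 to 0.42 and an adjusted p of 1.0. That interval leaves out a difference of 2-fold in either direction, although it covers technical spread alone.

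CCL4, which draws in monocytes and T cells, read 4.39 and 4.12 in the knockdown arrays, against 4.39 and 4.50 in the non-silencing arrays, a difference of -0.19 (SE 0.15, limma 95% interval from -0.58 to 0.20). Its signal cannot be separated with certainty from that of near-identical CCL4 copies. The probe set shared by CCL3, CCL3L1 and CCL3L3 read 4.59 and 4.27 in the knockdown arrays, against 4.42 and 4.44 in the non-silencing arrays, a difference of 0.00. Both probe sets were under the overall median in every array, and the groups overlapped in both.

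CXCL8, a neutrophil attractant that binds CXCR1 and CXCR2, was below the lower quartile of all values, 4.09, in both of its probe sets. The brighter read 3.81 and 3.68 in the knockdown arrays, against 3.48 and 3.94 in the non-silencing arrays, a difference of 0.03 (SE 0.19, limma 95% interval from -0.47 to 0.52). The dimmer read 3.36 and 3.41 in the knockdown arrays, against 3.19 and 3.11 in the non-silencing arrays, a difference of 0.23. The groups overlapped in the brighter probe set and were apart in the dimmer, so that the 2 disagreed. CXCL13, the ligand of CXCR5, was the dimmest member, with 3.07 and 2.87 in the knockdown arrays, against 2.76 and 2.74 in the non-silencing arrays. Its groups were apart by 0.11, with a difference of 0.22 (SE 0.14, limma 95% interval from -0.13 to 0.57). At such signals the size of a difference is uncertain.

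The classes were set side by side within each array number. The interferon-gamma-type chemokines had a median difference of -0.86 over 3 genes, with -1.29 within number 1 and -0.43 within number 2. These 3 values are those of CXCL10, the middle gene, between CXCL11 at -1.23 and CXCL9 at -0.03, so they do not describe CXCL9. The class median was -0.28 without knockdown array 1, -0.55 without non-silencing array 2 and -1.60 without knockdown array 2. The STAT6-type chemokines had a median of 0.41 over 2 genes, 0.68 and 0.15 within the numbers, and 0.25 without knockdown array 1. This median lies between CCL17 and CCL22, which had opposite signs, and describes neither. The NF-kB-type chemokines had a median of 0.03 over 3 measured genes, 0.18 and -0.27 within the numbers. The 0.03 is the value of CXCL8, a gene below the lower quartile, with CCL5 at 0.08 and CCL4 at -0.19. Over all 19775 genes the median was -0.01, and 0.00 and -0.01 within the numbers.

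The contrast between the STAT6 and interferon-gamma types therefore rested on 3 genes. The response of CCL17 exceeded that of CXCL10 by 1.83, and by 2.68 and 0.98 within the numbers 1 and 2. It exceeded that of CXCL11 by 2.20, and by 2.98 and 1.42 within the numbers. CCL17 was thus higher, and CXCL10 and CXCL11 lower, in the knockdown array of each number, and for all 3 genes the arrays numbered 1 differed by more. These gaps compare differences and not levels, since different probe sets have no common scale. They carry no test.

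**Figure D2:**
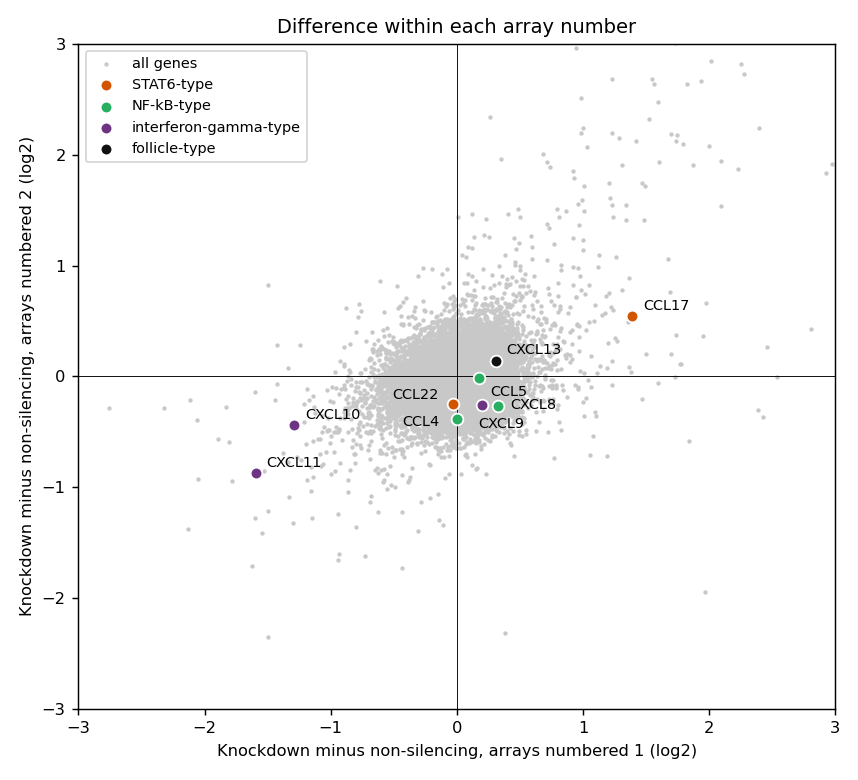
Knockdown minus non-silencing on the log2 scale for arrays numbered 1 (horizontal axis) and numbered 2 (vertical axis), with a grey point for each gene and coloured points for the 9 measured chemokines by class. CCL17 lies at 1.39 and 0.55, CXCL10 at -1.29 and -0.43 and CXCL11 at -1.59 and -0.87, whereas the 6 remaining chemokines lie within the bulk of the genes. A total of 9 genes outside 3 on either axis are not drawn.

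Genes whose profile over the 4 arrays was most like that of CCL17, CXCL10 or CXCL11 were sought by the root mean square distance between profiles centred on their own mean. Nearest to CCL17 were CA2, a carbonic anhydrase gene (distance 0.09), MVP, which encodes the major vault protein (0.10), and MAK, a kinase gene (0.11). Their differences were 1.05, 0.80 and 0.92. Nearest to CXCL10 were SHC4 (0.09), the Wnt co-receptor gene LRP6 (0.09) and TMEM71 (0.10), and nearest to CXCL11 were the mannose-binding lectin gene MBL2 (0.03), LRIG3 (0.15) and TMEM71 (0.18). CXCL11 ranked 41st in likeness to CXCL10, and CXCL10 ranked 5th in likeness to CXCL11, with a distance of 0.22. With 4 arrays and 19775 genes, close profiles are a description of these arrays and nothing more.

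The receptors of these chemokines were measured in the same tumour cells, and 0 of 6 measured receptors passed in limma (0.0% of all genes). At an unadjusted limma p under 0.05 there was 1, where 2.57% of all genes had such a p. Of these 6, from 8 listed, 2 had positive and 4 negative differences, with a median of -0.05. CXCR5, the CXCL13 receptor of B cells, read 6.35 and 6.05 in the knockdown arrays, against 5.57 and 5.80 in the non-silencing arrays. Its groups were apart, with a difference of 0.52 (SE 0.17, limma adjusted p of 1.0). Its dimmer probe set differed by -0.16, so that the 2 disagreed. CCR4 read 5.01 and 4.97 in the knockdown arrays, against 5.13 and 5.30 in the non-silencing arrays, a difference of -0.22. CXCR3 differed by -0.04, with overlapping groups.

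Atypical receptors take up chemokines without the usual signalling, and the peptidase DPP4 trims several ligands of CXCR3 and CCR4. Of 6 measured genes in this list, CCRL2 included, 3 had positive and 3 negative differences, with a median of 0.11. In limma 0 passed (0.0% of all genes), with 2 at an unadjusted p under 0.05 (2.57% of all genes). ACKR3, the bright scavenger of CXCL11 and CXCL12, read 9.77 and 9.42 in the knockdown arrays, against 10.01 and 9.97 in the non-silencing arrays, a difference of -0.39 (SE 0.16). ACKR1, a receptor for many inflammatory chemokines, differed by 0.62 (SE 0.16) and ACKR2, a scavenger of CC chemokines, by -0.33 (SE 0.13), both near the overall median in signal and with groups apart. DPP4 read 8.46 and 8.16 in the knockdown arrays, against 7.79 and 8.30 in the non-silencing arrays, a difference of 0.27 (SE 0.22) with overlapping groups.

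Among the other chemokines of the family CXCL14 stood out by size. Of 13 other CXC, XC and CX3C chemokines, 7 had positive and 6 negative differences, with a median of 0.00. In limma 0 passed (0.0% of all genes), with 2 at an unadjusted p under 0.05 (2.57% of all genes). CXCL14, a chemokine of epithelia known to draw in monocytes, read 7.87 and 8.86 in the knockdown arrays, against 6.66 and 7.12 in the non-silencing arrays, a difference of 1.47 (SE 0.37, limma adjusted p of 1.0). Its groups were apart. CXCL6 differed by 0.51 and CXCL16 by -0.37, both below the median of all values. CXCL12, the ligand of CXCR4, differed by 0.00 in its brighter probe set and by -0.22 in its dimmer.

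The 16 measured of 19 other CC chemokines had 8 positive and 8 negative differences and a median of -0.03. In limma 0 passed (0.0% of all genes), with 0 at an unadjusted p under 0.05 (2.57% of all genes). CCL20, which draws in cells with CCR6, was bright, with 10.46 and 9.88 in the knockdown arrays, against 10.12 and 10.38 in the non-silencing arrays. Its groups overlapped. CCL25, CCL8 and CCL7, the largest differences with groups apart, were -0.39, -0.25 and -0.21, all from dim probe sets.

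**Figure D3:**
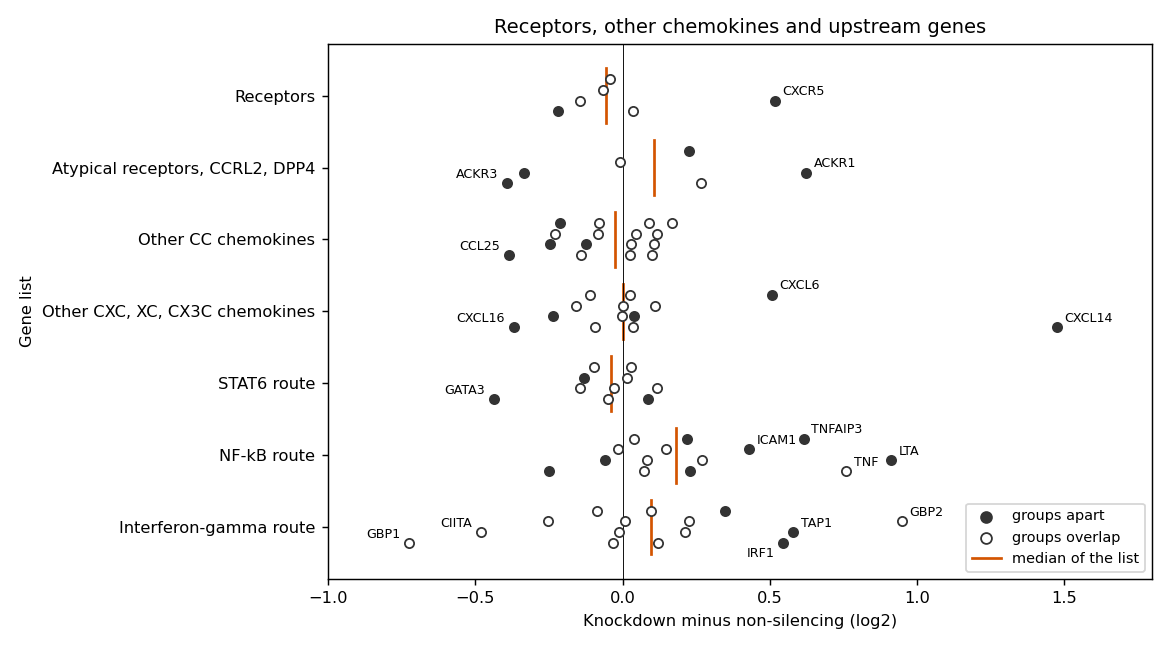
Knockdown minus non-silencing on the log2 scale for the genes of 7 lists, one point a gene, filled where the values of the groups do not overlap, with an orange line at each list's median and names beyond 0.36 in size. Most points lie within 0.4 of 0, with CXCL14 at 1.47 and GBP2 at 0.95 farthest to the right and GBP1 at -0.73 farthest to the left.

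Genes of the STAT6, NF-kB and interferon-gamma routes were set beside the chemokine classes. These lists hold upstream genes and also other targets of each route. In limma 0 passed (0.0% of all genes). An unadjusted limma p under 0.05 was found for 1, 1 and 2 genes of these routes in that order, against 2.57% of all genes. On the STAT6 route 4 of 10 genes had positive differences, with a median of -0.04. STAT6 read 10.09 and 9.93 in the knockdown arrays, against 10.37 and 9.94 in the non-silencing arrays, a difference of -0.15. The interleukin-4 receptor gene IL4R differed by -0.03, and the dim interleukin genes IL13 and IL4 by -0.13 and 0.09. GATA3, a transcription factor gene of T helper 2 cells and another known STAT6 target, differed by -0.44 (SE 0.12), opposite in sign to CCL17.

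On the NF-kB route 11 of 14 measured genes had positive differences, with a median of 0.18. Of all 19775 genes, 9522 had a positive difference. The 6 Hodgkin cell markers had the same sign, with 6 of 6 positive differences from 0.25 to 0.39 and a median of 0.30. The groups were apart for 1 of them, CD40, by 0.04, and overlapped for the rest. TRAF1, which is on both lists, differed by -0.08 within number 2. In limma 0 of these 6 passed (0.0% of all genes), with 0 at an unadjusted p under 0.05 (2.57% of all genes). Their part in the values of the route was not tested. The largest with groups apart were 0.91 for the lymphotoxin gene LTA, 0.61 for the NF-kB inhibitor gene TNFAIP3 and 0.43 for the adhesion molecule gene ICAM1. The NF-kB-type chemokines had no values of that size, with CCL5 at 0.08.

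On the interferon-gamma route 9 of 15 measured genes had positive differences, with a median of 0.10. TAP1, IRF1 and PSMB9, of peptide transport, transcription and the immunoproteasome, had the largest values with groups apart, at 0.58, 0.55 and 0.35. IRF1 read 8.78 and 8.05 in the knockdown arrays, against 7.89 and 7.86 in the non-silencing arrays, and so lay opposite in sign to CXCL10 and CXCL11. Its dimmer probe set differed by 0.50 with overlapping groups, and by 1.02 and -0.01 within the numbers 1 and 2. CIITA, 1 of the 6 genes of the route with a negative difference, had the sign of CXCL10 and CXCL11. It differed by -0.48 with overlapping groups, and by -0.49 and -0.48 within the numbers. The dimmer CIITA probe sets differed by -0.08 and 0.06. GBP1 read 5.53 and 6.91 in the knockdown arrays, against 5.64 and 8.25 in the non-silencing arrays, a difference of -0.73 (SE 0.94) that lay mostly between the arrays numbered 2. Of the 4 GBP1 probe sets this was the brightest, and 1 dim probe set had a positive difference, of 0.09. The others differed by -0.87 and -0.39, the latter with 0.13 within number 1 and -0.91 within number 2. GBP2 read 7.12 and 7.83 in the knockdown arrays, against 5.42 and 7.64 in the non-silencing arrays, a difference of 0.95 (SE 0.74) with overlapping groups. That difference lay mostly between the arrays numbered 1, with 1.70 within number 1 and 0.20 within number 2. The dimmer GBP2 probe set differed by 0.79, with 1.59 and -0.01 within the numbers. The interferon-gamma gene IFNG itself was dim, at 4.04 and 4.03 in the knockdown arrays against 3.99 and 4.11 in the non-silencing arrays. Its receptor genes IFNGR1 and IFNGR2 differed by 0.23 and 0.12, with overlapping groups.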

How the data were processed

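RNA of KM-H2 cells was measured on 4 arrays, 2 per group. The authors deposited log2 values per probe set, made with RMA (background correction, quantile normalization and summarising of probes), per the submitters' processing notes. The sources used here give no software version. RMA gives all arrays nearly the same distribution and compresses differences among dim probe sets. The labels' protocols give 2 cycles of cRNA amplification. The number of arrays limits the precision.

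Arrays were grouped by their titles. Of 54675 probe sets, 41097 had 1 gene symbol in the platform annotation, updated through RefSeq, 1801 had several and 11777 had none. Each of 19775 genes was represented by its brightest probe set over the 4 arrays. Groups were compared without covariates in limma 3.58.1 under R 4.3.3 (lmFit, eBayes, two-sided), with Benjamini-Hochberg adjustment over all genes and 0.05 as the threshold. The fit was tested on simulated data. Chemokine classes have no test.

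All 10 listed chemokines are described, with PTPN1. From each list of receptors, other chemokines and route genes, the 3 genes with the largest difference among those with groups apart were named. STAT6, IL4R, IL13, IFNG, IFNGR1, IFNGR2, IRF1, CXCR3, CCR4 and DPP4 were named as well. Further genes of those lists were picked with their values in view. The members and lists were chosen with earlier results of these data known. CCR3, CCL13, CCL14, CCL15, BIRC3 and FCGR3A are not analysed here, and some further genes of the lists are not reported here. Alternatives were quantile normalization, centring, the mean of all probe sets, a filter on dim genes, a trended robust variance, a replicate block, all probe sets in a single fit and leaving out each array. Values within an array number, and a shared probe set counted as CCL3, were added after seeing the data.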

Additional observations from a re-analysis of the deposited data

How the results depend on the processing

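None of the 98 tests of a measured chemokine under an alternative gave an adjusted p under 0.05, and the lowest was 0.0916, for CXCL11 with the replicate block. Over all genes the number called was 0 in limma, 3 with a trended robust variance and 72 with the replicate block, and from 0 to 1 without 1 array. The numbers 1 and 2 are tied to no shared batch by the labels, although deviations from the group means correlated between arrays of the same number (Pearson's r = 0.648 across genes, which are not independent replicates). With the replicate block CCL17 had an unadjusted limma p of 0.00316 (adjusted p 0.208), CXCL10 of 0.00573 (0.264) and CXCL11 of 5.3e-04 (0.0916), where 10.3% of all genes had an unadjusted p under 0.05 in that fit. Quantile normalization, centring, the choice of probe set, the filter and the variance model kept the direction of each of the 9 measured chemokines, of which the filter at the median of the gene means left CCL17, CCL5, CXCL10 and CXCL11 to test. CCL17 then lay between 0.94 and 0.99, CXCL10 between -0.87 and -0.84 and CXCL11 between -1.33 and -1.21. Without 1 array CCL17 ranged from 0.70 to 1.24, CXCL10 from -1.60 to -0.12 and CXCL11 from -2.05 to -0.41. CXCL8 ranged from -0.20 to 0.26, with -0.03 without knockdown array 1 and -0.20 without non-silencing array 1, and CXCL9 from -0.28 to 0.22, with 0.22 without knockdown array 2. Class medians without 1 array ranged from -1.60 to -0.28 for the interferon-gamma type, from 0.25 to 0.58 for the STAT6 type and from -0.20 to 0.16 for the NF-kB type. The causes were not tested. With 2 arrays in each group and 4 of the 9 members below 5.11, the median of all probe set values, small differences of dim members were not detectable.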

Other observations

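CXCL14 was measured by 3 probe sets, which did not act alike. The brightest differed by 1.47. The second read 7.87 and 8.53 in the knockdown arrays, against 6.59 and 6.79 in the non-silencing arrays, a difference of 1.52. The third read 4.93 and 4.49 in the knockdown arrays, against 4.83 and 4.88 in the non-silencing arrays, a difference of -0.15 below the median of all values. Within the array numbers the second differed by 1.28 and 1.75. CXCL14 was thus larger between the arrays numbered 2, whereas CCL17, CXCL10 and CXCL11 were larger in size between the arrays numbered 1.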
